A study of Rattus norvegicus with 8 samples.

Results

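The genes that make, sense and clear prostanoids were measured in whole rat lung (Rattus norvegicus) after monocrotaline, a toxin of Crotalaria plants that damages the vessels of the lung in rats and serves as a model of pulmonary hypertension. The genes, 10 in all, were chosen by symbol with earlier results of these data known. Of them 9 had a row among the 32623 genes of the deposited table (Ptgs1, Ptgs2, Ptges, Tbxas1, Ptgir, Tbxa2r, Ptger2, Ptger4 and Hpgd). The remaining one, the prostacyclin synthase gene Ptgis, was not analysed here. The groups were MCT, 4 lung libraries from rats given monocrotaline, and control, 4 lung libraries from rats of the control group. The labels give no strain, age, sex, dose, vehicle or time after treatment, and no statement that libraries of a group came from separate rats, so the p-values describe library-to-library spread, which may be technical.

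Prostanoids are lipid signals made from arachidonic acid. Phospholipases release the acid from membranes, the cyclooxygenases turn it into an unstable endoperoxide, and separate synthases turn that into prostacyclin, thromboxane, and the prostaglandins of the D, E and F classes. In the pulmonary circulation prostacyclin relaxes vessels and restrains platelets, whereas thromboxane constricts vessels and activates platelets, and drugs that mimic prostacyclin are used in pulmonary arterial hypertension. The lung also clears prostaglandins from the blood, through uptake by a membrane transporter and oxidation by the dehydrogenase that Hpgd encodes.

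Of the 9 genes, 3 passed the test, and the change of largest size was in breakdown. Hpgd was 5.41-fold lower in MCT lungs, at 8.56 ± 2.18 FPKM in MCT and 46.3 ± 11 FPKM in control (SD, n = 4 each). The thromboxane synthase gene Tbxas1 was 1.48-fold higher and the constitutive cyclooxygenase gene Ptgs1 was 1.3-fold higher in MCT by the ratio of mean FPKM. The inducible cyclooxygenase, the inducible prostaglandin E synthase and the receptors for prostacyclin, thromboxane and prostaglandin E did not pass. FPKM scales fragments to transcript length and library depth, so levels can be set beside each other between genes. A gene passed at a Benjamini-Hochberg p under 0.05 in the quasi-likelihood test of edgeR, adjusted over all 16715 tested genes.

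All 9 genes passed the filter on low counts, which was applied to the estimated counts and not to read pairs. On the scale of read pairs Ptges did not pass it. Of all tested genes, 20.5% passed the test, 11.0% as higher and 9.45% as lower. Against that background 2 of 9 higher and 1 of 9 lower are small counts, and the results lie in the single genes. The median log2 fold change of the 9 was 0.21, against 0.03 over all genes tested. The FPKM of the groups did not overlap for the same 3 genes, Hpgd, Tbxas1 and Ptgs1, as for 25.0% of all tested genes (13.3% with MCT higher and 11.7% with MCT lower).

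Depth came to about 11.3 to 18.1 M read pairs a library in MCT and 10.8 to 14.8 M in control. MCT 1 and control 1 stood apart from the other 6 on the second principal component (77.2 and 24.8, against -36.9 to -4.46), so results are also given without both where they differ. The lung's defining genes were abundant in every group, with the surfactant gene Sftpc at 15164 ± 1421 FPKM in MCT and 21541 ± 3575 FPKM in control, and the alveolar type 1 cell gene Ager at 1105 ± 105 FPKM in MCT and 1314 ± 122 FPKM in control (SD, n = 4 each). These are whole-lung libraries, in which fewer cells of a type and less RNA per cell cannot be told apart.

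The 250 bases before the RefSeq start sites of the 3 genes that passed are printed here to show which sequence lies upstream of the transcripts that differed. They are from rat build GRCr8, 5′ to 3′ on the gene's own strand: chr16:39034832-39035081 on the minus strand for Hpgd, chr4:68631635-68631884 on the plus strand for Tbxas1 and chr3:39981169-39981418 on the plus strand for Ptgs1. Capitals mark matches, on either strand, to any of 7 short motifs, and no marked matches overlap. The motifs were the TATA box as TATAAA, the cyclic AMP response element as TGACGTCA, the AP-1 site as TGANTCA, the E-box as CACGTG, the GATA site as AGATAA, the CCAAT box by its own letters and the GC box as GGGCGG.
Hpgd: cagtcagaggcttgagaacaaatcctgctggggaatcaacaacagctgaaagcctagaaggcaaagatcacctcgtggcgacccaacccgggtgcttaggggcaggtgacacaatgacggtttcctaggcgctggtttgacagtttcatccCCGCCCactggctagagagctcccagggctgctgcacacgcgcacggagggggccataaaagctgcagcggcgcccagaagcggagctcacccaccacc
Tbxas1: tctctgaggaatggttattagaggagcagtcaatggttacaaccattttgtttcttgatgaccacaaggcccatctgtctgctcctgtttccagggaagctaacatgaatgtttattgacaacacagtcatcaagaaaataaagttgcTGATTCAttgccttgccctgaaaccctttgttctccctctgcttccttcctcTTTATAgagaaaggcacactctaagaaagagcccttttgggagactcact
Ptgs1: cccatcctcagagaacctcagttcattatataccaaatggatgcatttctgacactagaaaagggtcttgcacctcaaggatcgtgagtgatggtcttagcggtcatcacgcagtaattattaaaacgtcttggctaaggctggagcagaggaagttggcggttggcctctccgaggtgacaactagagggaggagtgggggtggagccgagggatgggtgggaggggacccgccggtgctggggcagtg

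Hpgd held 1 GGGCGG match on the other strand, beginning 99 bases before the start site, and such a match lay in 32.4% of 27457 rat promoters of the same length. Tbxas1 held a TGANTCA match 102 bases before the start site, found in 6.36% of promoters, and a TATAAA match on the other strand at 50 bases, found in 13.1%. None of the 7 motifs matched in the Ptgs1 window. These matches are a description of the letters only.

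Synthesis begins with the cyclooxygenases. Ptgs1, which many cells express without stimulation, was at 29.1, 34.5, 29.3 and 35.9 FPKM in MCT 1 to 4, against 22.4, 29, 23.8 and 23.9 FPKM in control 1 to 4. The lowest MCT library lay just above the highest control library, control 2. Ptgs1 differed by 0.37 on the log2 scale (SE 0.11, adjusted p 0.046), with a 95% interval of 0.12 to 0.63. The call was lost when any of MCT 2, MCT 3, MCT 4, control 1, control 3 or control 4 was left out (adjusted p 0.0536 to 0.121), and without MCT 1 and control 1 together it was 0.0836.

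Ptgs2, the cyclooxygenase gene that inflammatory signals induce in many cells, was far lower than Ptgs1 in both groups. It was at 1.21, 0.76, 1.25 and 2.03 FPKM in MCT 1 to 4, against 0.97, 0.73, 2 and 0.83 FPKM in control 1 to 4. Each group had 1 library near 2 FPKM, and the groups overlapped. Its log2 fold change was 0.21 (SE 0.38, adjusted p 0.75), with an interval of -0.65 to 1.08 that rests on 40.9 to 167 read pairs a library. Within a library Ptgs2 was at 0.022 to 0.0566 of the Ptgs1 level in MCT and at 0.0252 to 0.0841 in control.

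Tbxas1, which turns the endoperoxide into thromboxane and is known from platelets and macrophages, was at 15, 20.3, 19.3 and 21.1 FPKM in MCT 1 to 4. The control libraries 1 to 4 were close together at 12.7, 13.4, 12.8 and 12.3 FPKM. Every MCT library lay above every control library, with MCT 1 nearest to them. Tbxas1 had a log2 fold change of 0.56 (SE 0.11, adjusted p 0.00816), and it was 0.50 to 0.65 with each library left out in turn, with the call kept each time.

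Ptges encodes the inducible membrane synthase of prostaglandin E and was close to the limit of detection. It was at 0.52, 0, 0.25 and 0.33 FPKM in MCT 1 to 4, against 0.16, 0.46, 0.18 and 0.29 FPKM in control 1 to 4. No library held more than 8.17 read pairs, and the count of 0 in MCT 2 allows up to 3. For Ptges the log2 fold change was 0.02 with an interval of -2.09 to 2.14 (adjusted p 0.991), so a difference was not detectable at this depth.

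**Figure D1:**
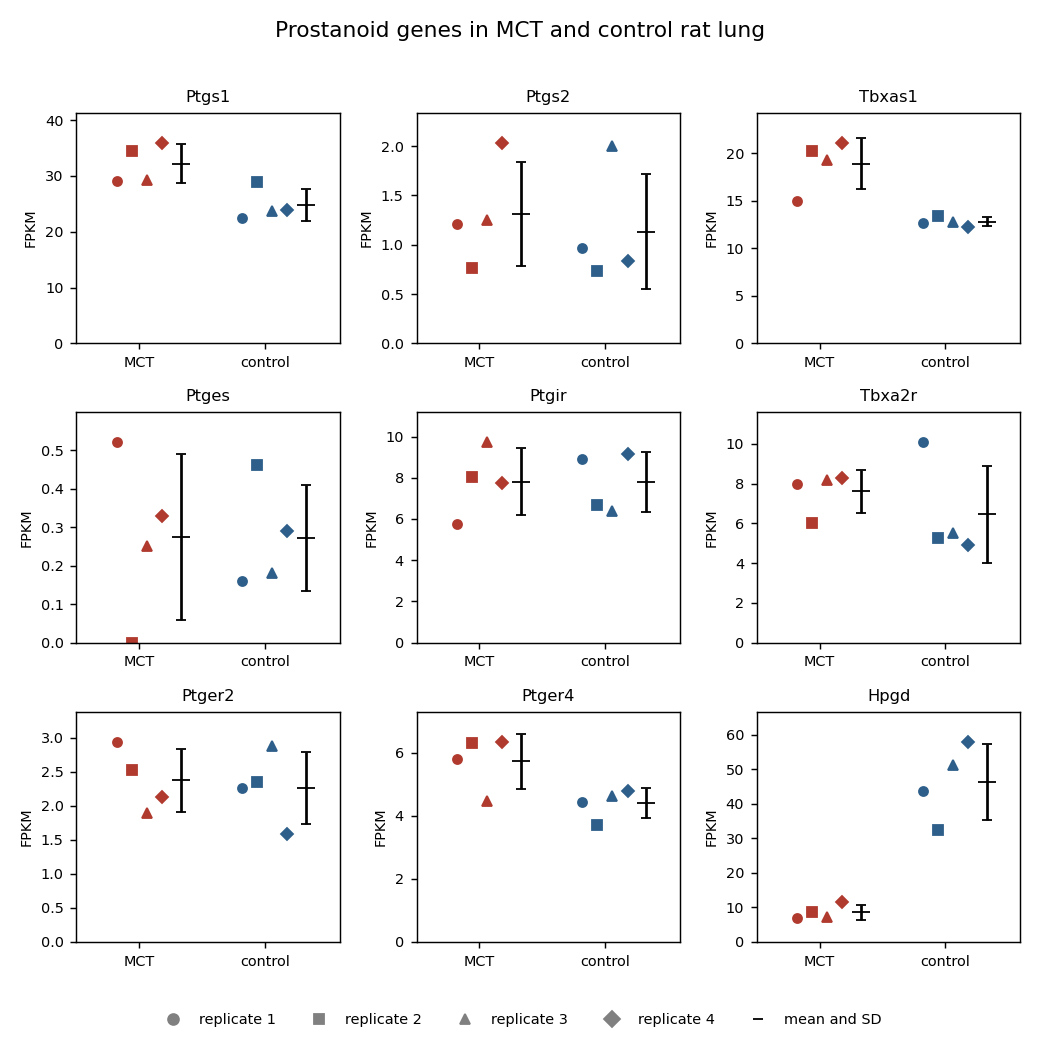
FPKM of the 9 prostanoid genes (y axes, each from 0) in the 4 MCT libraries (red, left) and the 4 control libraries (blue, right), with each group's mean and SD as a bar. Hpgd in MCT lies between 6.9 and 11.6 FPKM, below all control libraries, while Tbxas1 and Ptgs1 in MCT lie above all control libraries.

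Among the receptors, no gene passed the test. The prostacyclin receptor gene Ptgir, which raises cyclic AMP in smooth muscle and platelets, was at 5.76, 8.05, 9.72 and 7.74 FPKM in MCT 1 to 4. It was at 8.9, 6.68, 6.41 and 9.17 FPKM in control 1 to 4, and the lowest and highest of the 8 values were both from MCT. Its log2 fold change was 0.00 (SE 0.17, adjusted p 0.992), with an interval of -0.37 to 0.38.

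The thromboxane receptor gene Tbxa2r, whose product contracts vessels, was at 7.97, 6.01, 8.2 and 8.31 FPKM in MCT 1 to 4. It was at 10.1, 5.28, 5.54 and 4.9 FPKM in control 1 to 4, so control 1 was the highest of all and the other control libraries were the lowest. The log2 fold change was 0.24 (SE 0.24, adjusted p 0.534), and without control 1 it was 0.53 (adjusted p 0.0509). The ratio of Ptgir to Tbxa2r within a library overlapped between groups, at 0.723 to 1.34 in MCT and 0.883 to 1.87 in control.

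Ptger2 and Ptger4 encode the prostaglandin E receptors that raise cyclic AMP. Ptger4 was at 5.8, 6.29, 4.48 and 6.35 FPKM in MCT 1 to 4, against 4.44, 3.72, 4.64 and 4.79 FPKM in control 1 to 4. MCT 3 was the only MCT library inside the control range. The log2 fold change of Ptger4 was 0.38 (SE 0.17), with an unadjusted p of 0.0447 and an adjusted p of 0.137. Ptger2 was at 2.94, 2.52, 1.89 and 2.13 FPKM in MCT 1 to 4 and at 2.26, 2.34, 2.87 and 1.58 FPKM in control 1 to 4. These values were interleaved, and the log2 fold change of Ptger2 was 0.07 (SE 0.24, adjusted p 0.882, interval -0.48 to 0.62).

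Breakdown differed most in size. Hpgd (ENSRNOG00000010610, chromosome 16 from 37457135 to 37495758 on the minus strand of Rnor_6.0) encodes the enzyme that oxidises and thereby inactivates prostaglandins. It was at 6.9, 8.59, 7.1 and 11.6 FPKM in MCT 1 to 4, against 43.7, 32.3, 51.2 and 58 FPKM in control 1 to 4. The lowest control library was well above the highest MCT library. Behind these values stood 137 to 368 read pairs in MCT libraries and 765 to 1127 in control libraries.

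The log2 fold change of Hpgd was -2.43 (SE 0.22, adjusted p 0.000331), with an interval of -2.92 to -1.94. It was the 59th lowest log2 fold change of the 16715 genes tested. With each library left out in turn it was -2.62 to -2.32, and the call was kept each time. The ratio of Ptgs2 to Hpgd within a library, which does not depend on how libraries are scaled, was 0.0885 to 0.176 in MCT and 0.0143 to 0.0391 in control. The groups did not overlap in this ratio, and Ptgs2 itself did not pass the test.

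The order of levels differed between the groups through Hpgd. In MCT the order of mean FPKM was Ptgs1 (32.2), Tbxas1 (18.9), Hpgd (8.56), Ptgir (7.82), Tbxa2r (7.62), Ptger4 (5.73), Ptger2 (2.37), Ptgs2 (1.31) and Ptges (0.275). In control it was Hpgd (46.3), Ptgs1 (24.8), Tbxas1 (12.8), Ptgir (7.79), Tbxa2r (6.45), Ptger4 (4.4), Ptger2 (2.26), Ptgs2 (1.13) and Ptges (0.273). In MCT the ranges of Hpgd, Ptgir and Tbxa2r overlapped one another, and that of Ptger4 overlapped those of Ptgir and Tbxa2r. Hpgd was below Tbxa2r in MCT 1 and MCT 3. The ranges of Ptger2 and Ptgs2 overlapped in both groups, and in control so did those of Ptgir and Tbxa2r. Ptger2 was nonetheless above Ptgs2 within each of the 8 libraries. Hpgd was the first of the 9 in every control library and stood below Ptgs1 and Tbxas1 in every MCT library.

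By the root mean square difference of centred log2 CPM (counts scaled to library size) over the 8 libraries, the genes most like Hpgd were Ace3 (0.247) and Clec14a (0.288), a glycoprotein gene of endothelial cells. Ace3 was low, at 0.478 ± 0.122 FPKM in MCT and 2.5 ± 0.434 FPKM in control. Clec14a was at 36.9 ± 7.73 FPKM in MCT and 152 ± 13.1 FPKM in control. The genes most like Tbxas1 were Slc9a9 (0.0617), an endosomal sodium and proton exchanger gene, and Tmed3 (0.0651). Those most like Ptgs1 were Crispld2 (0.0832), which did not pass the test (adjusted p 0.065), and Blvrb (0.0852), the biliverdin reductase B gene. The search covered 12402 other genes, and much of each likeness is the shared difference between groups.

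The other genes of the pathway were set beside these 9, and were chosen with earlier results of these data known. They were listed by step, 30 symbols in 4 lists, of which 27 had a row and 26 could be tested. The symbols without a row included the prostaglandin D receptor gene Ptgdr, which was not analysed here. The others, Fam213b and Ptgr3, are further names of Prxl2b and Zadh2, which had rows. In these lists 4 of 26 genes were higher and 5 lower in MCT, against 11.0% and 9.45% of all genes tested. These are small counts. The called changes of largest size were a rise of the prostaglandin D synthase gene Hpgds, a fall of the transporter gene Slco2a1 and a rise of the phospholipase gene Pla2g4a. The plot of fold changes by step places them beside the 9 genes.

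**Figure D2:**
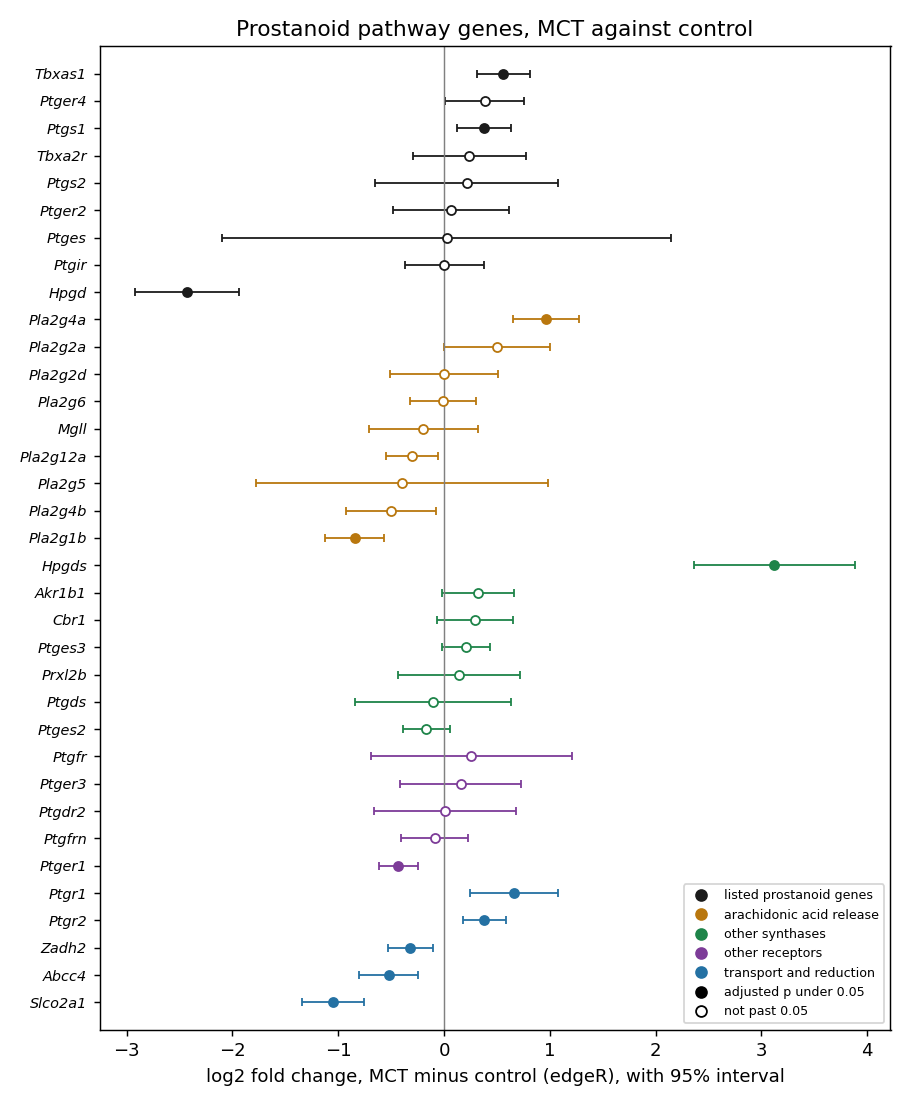
Log2 fold change of MCT minus control (x axis, edgeR) with its 95% interval for each prostanoid pathway gene tested, grouped by step. Filled points have an adjusted p under 0.05. Hpgd lies at -2.43 and Hpgds at 3.12, while most other intervals lie within 1 of zero or cross it.

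Of the 9 tested genes that release arachidonic acid, 1 was higher and 1 lower. Without MCT 1, with control 1 kept or also left out, 2 were lower, and with DESeq2 3 were lower. Pla2g4a, the cytosolic phospholipase gene that supplies the cyclooxygenases, was at 4.14, 5.55, 5.74 and 5.92 FPKM in MCT 1 to 4, against 2.49, 2.94, 2.68 and 2.81 FPKM in control 1 to 4. The groups did not overlap, and the log2 fold change was 0.96 (SE 0.14, adjusted p 0.00205). Pla2g1b fell to 95.1 ± 12.3 FPKM in MCT, against 171 ± 20.2 FPKM in control, a log2 fold change of -0.85 (SE 0.12, adjusted p 0.00217).

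Of the 7 other synthase genes tested, 1 was higher and none lower, and 2 were higher without MCT 1. Hpgds, which makes prostaglandin D in mast cells and other blood-derived cells, was at 2.71, 7.67, 6.07 and 7.34 FPKM in MCT 1 to 4, against 0.77, 0.61, 0.6 and 0.69 FPKM in control 1 to 4. MCT 1 was the lowest MCT library and still above all controls. The log2 fold change was 3.12 (SE 0.34, adjusted p 0.000606), and the control values rest on 8.17 to 14.2 read pairs. The constitutive prostaglandin E synthase genes did not pass: the log2 fold changes were 0.21 for Ptges3 (adjusted p 0.178) and -0.17 for Ptges2 (adjusted p 0.27).

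Of the 5 genes tested in the list of other receptors, which includes the receptor regulator gene Ptgfrn, only Ptger1 passed. It was 23 ± 1.92 FPKM in MCT and 31 ± 2.01 FPKM in control, with no overlap and a log2 fold change of -0.43 (SE 0.08, adjusted p 0.00632). Its mean level was above those of Ptger4 and Ptger2 in both groups.

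All 5 tested genes of transport and reduction passed, 2 higher and 3 lower, where 20.5% of all tested genes passed. Slco2a1, the transporter that takes prostaglandins up before Hpgd oxidises them, was at 224, 179, 154 and 205 FPKM in MCT 1 to 4, against 393, 368, 378 and 440 FPKM in control 1 to 4. No MCT library reached the lowest control library, and the log2 fold change was -1.05 (SE 0.13, adjusted p 0.00103). Slco2a1 and Hpgd were thus both lower in all 4 MCT libraries than in any control library. The export pump gene Abcc4 was at 6.1 ± 0.763 FPKM in MCT and 8.74 ± 1.11 FPKM in control (log2 fold change -0.52, adjusted p 0.017, and 0.0557 without MCT 2).

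The reductases that act on the product of Hpgd moved in both directions. Ptgr1 was at 0.66 on the log2 scale (SE 0.18, adjusted p 0.0331) and Ptgr2 at 0.38 (SE 0.09, adjusted p 0.0163), while Zadh2 was at -0.32 (SE 0.10, adjusted p 0.0436). The call of Ptgr1 was lost when MCT 3, MCT 4, control 2 or control 3 was left out, that of Ptgr2 when MCT 2, MCT 4 or control 2 was left out, and that of Zadh2 when any library other than MCT 1 was left out. Their largest adjusted p with a library left out were 0.0947, 0.0607 and 0.119. Zadh2 lost its call under 13 of 19 alternatives, among them every limma fit and the replicate block.

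**Figure D3:**
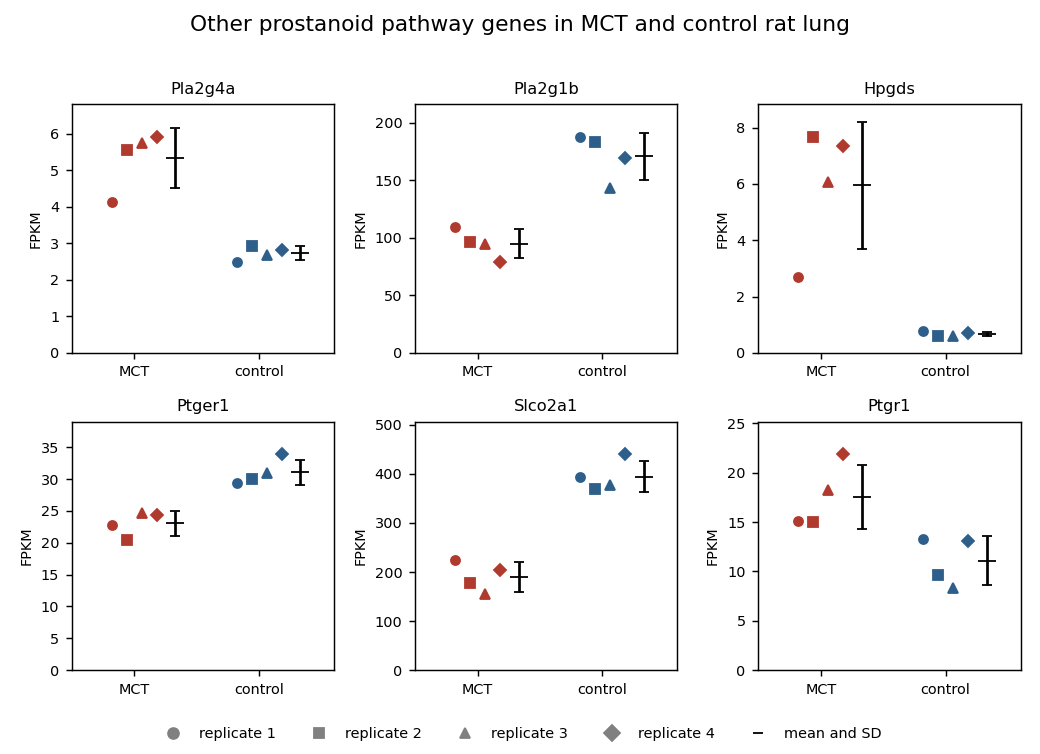
FPKM (y axes, each from 0) of 6 other pathway genes in the 4 MCT libraries (red, left) and the 4 control libraries (blue, right), with each group's mean and SD. Slco2a1 in MCT lies between 154 and 224 FPKM, below all controls, and Hpgds in MCT lies between 2.71 and 7.67 FPKM, above all controls.

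Markers of several cell types moved with these genes, and their part in the results was not tested. Beside the lower Hpgd and Slco2a1, the summed FPKM of 9 general endothelial markers was 481 to 591 in MCT and 796 to 902 in control, with 4 of 9 lower and 1 higher. Their abundant member Esam had a log2 fold change of -0.44 and Tek, the angiopoietin receptor gene, -2.61. The higher one was Emcn, at 1.04 to 1.32 with each library left out in turn. Clec14a, also lower, was at 36.9 FPKM in MCT and 152 FPKM in control, a large part of the difference in the sum. The 7 capillary markers summed to 366 to 516 in MCT and 441 to 493 in control, with 3 lower and 2 higher. In that list Gpihbp1 had -3.25, Apln and Fibin were the higher ones, and Tbx2 did not pass (-0.03). Alveolar type 2 markers summed to 20854 to 27060 FPKM in MCT and 28958 to 37490 FPKM in control, with 5 of 9 lower and 1 higher (Sftpc -0.51 and Etv5 -0.87), with 3 lower when MCT 3, MCT 4, control 2 or control 3 was left out and none higher without control 4. Sftpc alone made up most of the alveolar type 2 sum in both groups, and its call was lost when any library other than control 4 was left out. Of 7 alveolar type 1 markers 2 were lower and none higher, and 1 was lower when MCT 2, MCT 4, control 2, control 3 or control 4 was left out, with Rtkn2 at -0.81, which passed whichever single library was left out, and Ager not past the threshold at -0.25.

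Tuft cells, chemosensory cells of the epithelium, also express Ptgs1 and Hpgds in mice, and their markers moved the opposite way from these genes. All 5 tested tuft markers were lower, and the list summed to 9.27 to 21.7 FPKM in MCT and 42.8 to 89 FPKM in control (Trpm5 -2.57 and Avil -2.30). Chat was at 0 in all MCT libraries.

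Beside the higher Hpgds, Ptgs1 and Tbxas1, all 8 mast cell markers were higher. They summed to 263, 950, 935 and 1256 FPKM in MCT 1 to 4 and to 13.8 to 24.5 FPKM in control, with Cpa3 at a log2 fold change of 5.84 and Ms4a2 at 5.30. MCT 1 was the lowest MCT library in this sum and in that of the macrophage markers, and also for Hpgds and Tbxas1. For Ptgs1 it was level with MCT 3. MCT 1 was also the lowest MCT library in the fibroblast, capillary and mesothelial sums. It was the highest in the club, ciliated, tuft and neutrophil sums. The mast cell sum was highest in MCT 4 and Hpgds in MCT 2, while the macrophage sum was highest in MCT 2 and Tbxas1 in MCT 4. Macrophage markers summed to 500 to 918 FPKM in MCT and 245 to 366 FPKM in control, with 6 of 9 higher and none lower (C1qa 1.78 and C1qc 1.84), and Marco was near 0. Leaving out MCT 2, MCT 3, MCT 4, control 1, control 2 or control 4 left 4 higher. Adgre1 and Siglec1 then lost their calls (adjusted p up to 0.0855 and 0.116). In the platelet and megakaryocyte list 1 of 9 was higher, Pf4 at 1.24, and the other 8 did not pass (1 was lower without MCT 1, with DESeq2 and with limma). The median log2 fold change of the 9 was -0.42. That list summed to 56.6 to 67.4 FPKM in MCT and 20 to 45.2 FPKM in control, of which Pf4 alone made up a mean of 55.6 FPKM in MCT and 23.6 FPKM in control, and Ppbp, a defining platelet gene, was at or near 0.

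**Figure D4:**
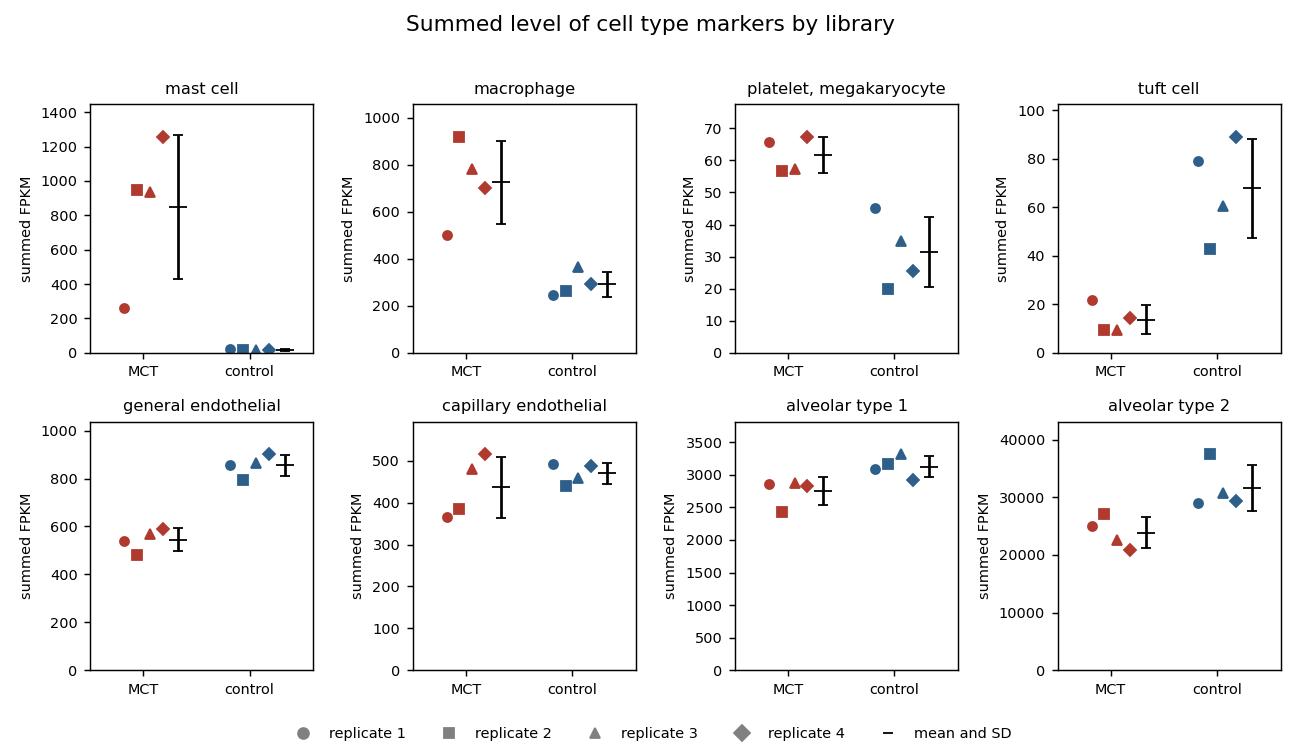
Summed FPKM of the markers of 8 cell types (y axes, each from 0) in the 4 MCT libraries (red, left) and the 4 control libraries (blue, right), with each group's mean and SD. Mast cell markers in MCT lie between 263 and 1256 FPKM with MCT 1 lowest, and general endothelial markers in MCT lie between 481 and 591 FPKM, below all controls.

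Of 6 fibroblast markers 3 were higher (Col3a1 1.41 and Col1a1 1.70) and the list summed to 962 to 1585 FPKM in MCT and 524 to 705 FPKM in control. Of 9 smooth muscle markers 1 was higher, Smtn at 0.51, which fell short when any of 5 libraries was left out, and Tagln did not pass (0.25). None of the 7 ciliated or 5 mesothelial markers passed (1 ciliated marker was lower without MCT 1), with Tppp3 at -0.39 and Msln at 0.48. Of 6 club cell markers Cyp2b1 was lower (-0.87) and Scgb1a1 did not pass (0.27), while 1 was higher without MCT 1, and without MCT 1 and control 1 together. Of 7 neutrophil markers Il1r2 was higher (1.65) and S100a9 did not pass (1.34).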

How the data were processed

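RNA sequencing libraries were made from total RNA with oligo(dT) beads, per the labels. The submitters' processing notes name cutadapt 1.9, HISAT2 2.0.4, StringTie 1.3.4d, edgeR and the rat build Rnor_6.0, with no order or settings. The deposited table holds FPKM and an estimated count per gene and library, per the file headers. The estimated counts are whole numbers whose low values lie about 3.67 apart, so totals of 39.8 to 66.6 M per library stand for about 10.8 to 18.1 M read pairs. Rounding changed no value.

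The counts were tested with edgeR 4.0.16 in R 4.3.3 (filterByExpr with minimum count 10, TMM scaling, robust quasi-likelihood F test, two-sided, Benjamini-Hochberg over 16715 genes). The step was also tested on simulated data, where recovery was required only of fold changes larger than those of Ptgs1 and Tbxas1. Fold changes are MCT minus control on the log2 scale. FPKM values are mean ± SD over 4 libraries. Libraries of a group differed by more than sampling noise (chi-square per gene at least 16.1).

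Members and lists were chosen with earlier results of these data known. Named were the 10 members; in each pathway list every called gene, or the most abundant where none was called; in each marker list the most abundant gene and the called gene with the smallest p; and the 2 genes most like each called member, among those with mean FPKM of at least 1 and a symbol that is not a clone or locus name (log2 CPM, prior count 2). Other genes are examples. The lists were arachidonic acid release, other synthases, other receptors, transport and reduction, receptor coupling, and 14 cell type lists. Alternatives used limma 3.58.1 on log2(FPKM + 0.5), pseudocounts 0.1 and 1, and DESeq2 1.42.0, among others. Promoters are RefSeq's, and all 9 genes matched by symbol. Strand use in counting is not given in the sources used, so reads of Adcy3 and Arrb1 cannot be told apart from those of Cenpo and Tpbgl, which overlap them on the opposite strand.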

Additional observations from a re-analysis of the deposited data

Results flagged for a closer look

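A single library stood far from the rest of its group of 4 in 2 of the 26 sets of values examined, where chance gives about 1.3. For Tbxa2r it was MCT 2, at 6.01 FPKM against 7.97 to 8.31 FPKM in the other MCT libraries, with a gap of 0.909 of the range on the log2 CPM scale. For the log2 ratio of Ptgs2 to Hpgd it was also MCT 2, at -3.50 against -2.52 to -2.51 in the other MCT libraries, with a gap of 0.988 of the range.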

How the results depend on the processing

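Among 169 values of the 9 prostanoid genes under the alternatives, 138 kept their direction and their side of the threshold, 9 lost the call of Ptgs1 and 22 changed sign in genes that did not pass. Hpgd (-2.62 to -2.30) and Tbxas1 (0.50 to 0.65) kept their calls under all 19 alternatives. Ptgs1 had adjusted p of 0.0594 with no filter on counts, 0.0545 with DESeq2 size factors and 0.0836 without MCT 1 and control 1, so each of these left 1 of the 9 genes higher. With each library left out in turn the number of members higher was 1 to 2. The numbers of all genes higher and lower were then 1191 to 1946 and 975 to 1730, lowest without MCT 2. Other pathway genes lower, receptor coupling included, numbered 11 with all libraries, 5 without MCT 2 and 7 without control 4. With a change of 1 or more on the log2 scale also required, 618 genes were higher and 298 lower, 0 members were higher, and 1 other pathway gene was higher and 1 lower.

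The fold changes that changed sign were those of Ptgs2, Ptgir, Ptges and Ptger2, none of which passed the test. With libraries left out in turn they ran from -0.081 to 0.64 for Ptgs2, -0.11 to 0.12 for Ptgir, -0.48 to 0.44 for Ptges and -0.079 to 0.20 for Ptger2. For Ptgir the values were -0.0002 and -0.0005 with limma at pseudocounts of 0.5 and 0.1, and -0.0079 both with DESeq2 size factors and with DESeq2. For Ptges they were -0.025, -0.19 and -0.0072 with limma at pseudocounts of 0.5, 0.1 and 1, and -0.66 without MCT 1 and control 1, where Ptger2 was -0.071. Ptges was not tested with an FPKM filter or with counts divided by their spacing. The cause of these changes was not tested. No scaling moved the median of all genes by over 0.1.

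The same replicate number in both groups is not stated to mark shared rats or days, and deviations from the group means correlated at 0.11, 0.02, -0.02 and -0.09 for numbers 1 to 4. With the replicate block, 1436 genes were higher and 1271 lower, Ptgir was -0.0021 and Ptges -0.20, and the same number of members was called (2 higher and 1 lower), while 1 club cell marker was then higher, 1 alveolar type 1 marker lower and no smooth muscle marker higher. Depth limits Ptges, for which no library held more than 8.17 read pairs.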

Other observations

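The proteins through which prostanoid receptors signal were listed too, also with earlier results of these data known. Of 18 tested genes of G protein subunits, adenylyl cyclases and arrestins, 2 were higher and 6 lower in MCT, against 11.0% and 9.45% of all genes tested, and their median log2 fold change was -0.25. Leaving out MCT 2 left 2 lower, and leaving out control 4 left 3. The lower genes included 4 adenylyl cyclases, which make cyclic AMP below the prostacyclin receptor, while Adcy1, Adcy4 and Adcy7 did not pass. Adcy9 was at 5.76 ± 1.53 FPKM in MCT and 10 ± 0.597 FPKM in control (SD, n = 4 each), a log2 fold change of -0.80 (SE 0.17, adjusted p 0.0104 with edgeR). Adcy5 had -0.47 (adjusted p 0.00692), Adcy3 -0.39 (adjusted p 0.033) and Adcy6 -0.24 (adjusted p 0.0454), while Adcy2 was higher at 0.59 (adjusted p 0.0116). The call of Adcy3 was lost when any of 6 libraries was left out (adjusted p up to 0.0836), and that of Adcy6 when any of 7 was (up to 0.118). Adcy3 lost its call under 11 of 19 alternatives, among them every limma fit and the replicate block. Adcy6 lost its call under 8, the replicate block among them.

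The arrestins, which end receptor signalling, moved in opposite directions. Arrb1 was at 9.58 ± 2.24 FPKM in MCT and 16.7 ± 3.51 FPKM in control (log2 fold change -0.81, adjusted p 0.0157, and 0.0513 without MCT 2). Arrb2 was at 33.8 ± 3.89 FPKM in MCT and 21.5 ± 3.64 FPKM in control (log2 fold change 0.66, adjusted p 0.00852). The inhibitory subunit gene Gnai1 had -0.51 (adjusted p 0.032), a call lost without MCT 2, MCT 3, control 2 or control 4 (up to 0.0838). The stimulatory subunit gene Gnas did not pass (0.11, adjusted p 0.346).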
